A study of Mus musculus with 2 samples.

Results

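Cenpj, Nde1, Cep55 and Nin encode proteins of the centrosome and the dividing cell, and recessive mutations of each have been linked to small-brain disorders in people. They were chosen by their gene symbols from a table of loci that the study's authors had called different between Trrap-deleted and control cortex, with the direction of that difference already known, so their values describe that contrast and test nothing. The 4 genes have 1 row each among the 2381 rows of the table. The Trrap-deleted sample was cortex of E14.5 mouse embryos homozygous for the floxed Trrap allele with Nestin-Cre (TrrapF/F NestinCre+), on a B6/129 background. The control, labelled wild type, was cortex of the same stage and background with 1 floxed and 1 intact allele and the same Cre (TrrapF/+ NestinCre+), so both genotypes lose at least 1 allele in Cre-expressing cells. Nestin-Cre acts mainly in neural progenitors of the developing brain and their descendants. There was 1 library per genotype, and the labels do not give the number of embryos in each.

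The centrosome organises microtubules and holds a pair of centrioles that are copied once per cell cycle. In the embryonic cortex, radial glial progenitors divide at the ventricular surface after their nuclei have travelled there along microtubules, and the balance between divisions that renew progenitors and divisions that produce neurons sets the size of the cortex. Most genes of primary microcephaly act at the centrosome, the spindle or the chromosomes of these dividing progenitors. Trrap is the scaffold subunit of several histone acetyltransferase complexes and a cofactor of Myc and E2F transcription factors.

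The start regions of the 4 genes are shown because cell-cycle genes often carry short promoter elements. The shared direction of the 4 genes was known when they were picked, so it gives no ground to expect a shared element. All 4 symbols matched RefSeq promoter windows on GRCm38.p6, each 300 bases long with 250 bases before and 50 after an annotated start, and the most upstream window of each gene is printed on the gene's strand. The Cenpj window is chr14:56571797-56572096 (minus strand), that of Nde1 is chr16:14163025-14163324 (plus strand), that of Cep55 is chr19:38054734-38055033 (plus strand) and that of Nin is chr12:70111986-70112285 (minus strand). Capitals mark matches on either strand to TTTGAA (the core of the cell-cycle homology region, CHR, of genes expressed in G2 and mitosis), to CCAAT, or to an E2F-type word, that is TTCCCGC or TTCGCGC or TTGGCGC or TTGCCGC. The Myc-type E-box CACGTG was also searched.
Cenpj: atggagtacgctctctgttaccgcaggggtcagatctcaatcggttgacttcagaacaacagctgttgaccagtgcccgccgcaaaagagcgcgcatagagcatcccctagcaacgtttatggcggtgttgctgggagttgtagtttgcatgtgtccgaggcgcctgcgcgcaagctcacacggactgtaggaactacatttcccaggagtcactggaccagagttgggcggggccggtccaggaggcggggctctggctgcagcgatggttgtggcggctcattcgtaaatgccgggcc
Nde1: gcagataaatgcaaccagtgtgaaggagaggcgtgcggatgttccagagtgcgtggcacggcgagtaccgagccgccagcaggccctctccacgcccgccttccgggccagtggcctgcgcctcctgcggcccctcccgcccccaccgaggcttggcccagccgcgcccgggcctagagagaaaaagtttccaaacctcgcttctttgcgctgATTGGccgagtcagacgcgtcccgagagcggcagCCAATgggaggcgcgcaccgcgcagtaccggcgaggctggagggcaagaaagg
Cep55: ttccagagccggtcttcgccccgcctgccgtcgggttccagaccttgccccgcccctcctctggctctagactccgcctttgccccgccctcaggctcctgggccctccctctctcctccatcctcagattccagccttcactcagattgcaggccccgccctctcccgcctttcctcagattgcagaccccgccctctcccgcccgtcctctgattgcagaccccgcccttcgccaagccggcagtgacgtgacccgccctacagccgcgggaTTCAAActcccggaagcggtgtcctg
Nin: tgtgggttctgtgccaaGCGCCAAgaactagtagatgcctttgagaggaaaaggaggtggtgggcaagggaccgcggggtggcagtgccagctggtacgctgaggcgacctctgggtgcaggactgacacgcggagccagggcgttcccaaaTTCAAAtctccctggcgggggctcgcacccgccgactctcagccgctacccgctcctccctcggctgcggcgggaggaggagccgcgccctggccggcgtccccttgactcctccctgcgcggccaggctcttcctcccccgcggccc

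The 4 genes have 7 such windows in all, 1 each for Cenpj and Nde1, 2 overlapping ones for Cep55 and 3 for Nin. A CHR core was found in 3 windows of 2 genes, Cep55 and Nin, and 17.9% of all 32851 windows in the RefSeq table hold one. In Cep55 the same TTCAAA, the reverse complement of the core, begins at base 25 from the upstream start and 33 bases before the downstream start, and in Nin it begins 98 bases before the most upstream start. CCAAT was found in 2 genes: Nde1 has a pair, at 37 and 3 bases before its start, and Nin has 1 in each of its other windows, against 37.4% of all windows. An E2F-type word was found in 1 window, that of Nin shown above, 233 bases before the start, against 9.57% of all windows. No member window held the E-box CACGTG, which 7.15% of all windows hold. The Cenpj window held none of these letters. Listed genes as a whole differ from all windows in these traits. An E2F-type word is in 18.0% of the windows of genes listed lower and 14.53% of those of genes listed higher, a CHR core in 15.5% and 10.2%, CCAAT in 44.3% and 33.3%, and the E-box in 10.1% and 8.85%. The 7 windows were 57.7% to 75.0% G and C, beside a median of 61.3% over windows of genes listed lower, 61.3% over those of genes listed higher and 52.7% over all windows. A match is a stretch of letters in a window, and binding was not measured.

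All 4 genes were lower in the Trrap-deleted library. Cenpj encodes CPAP, a tubulin-binding protein needed to build and elongate centrioles. It had 4.71 FPKM (sequenced fragments per kilobase of transcript, scaled to the size of the library) in Trrap-deleted cortex, against 8.85 FPKM in control cortex, a log2 fold change of -0.91. The Trrap-deleted level was 53.2% of the control level, the lowest share of the 4. The authors' deposited table gives Cenpj a p-value of 1.95e-05 and a q-value of 0.000504.

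Nde1 encodes a partner of Lis1 (gene Pafah1b1) and the dynein motor, which carries nuclei and positions spindles in progenitors. It had 26.3 FPKM in Trrap-deleted cortex and 45.9 FPKM in control cortex, a log2 fold change of -0.80 and a level of 57.3% of control. Nde1 was the most abundant of the 4 transcripts per length in both libraries and differed most in absolute terms, by -19.6 FPKM. Its q-value in the authors' deposited table is 0.0144.

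Cep55 encodes a midbody protein that, in cultured human cells, recruits the membrane-cutting ESCRT machinery at the end of cytokinesis. It had 9.73 FPKM in Trrap-deleted cortex, against 14.8 FPKM in control cortex, a log2 fold change of -0.60 and 65.8% of the control level. Nin encodes ninein, which anchors microtubules at the subdistal appendages of the mother centriole. It had 9.92 FPKM in Trrap-deleted cortex and 13.3 FPKM in control cortex, a log2 fold change of -0.43 and 74.3% of the control level. Of the 4 genes Nin differed least. Cep55 and Nin lie close to the authors' threshold of 0.05, with q-values of 0.0449 and 0.0371 in the authors' deposited table, and only 81 of the 2381 rows have a higher q-value than Cep55. Rows beyond that threshold are not in the table, so genes just outside it have no value here.

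**Figure D1:**
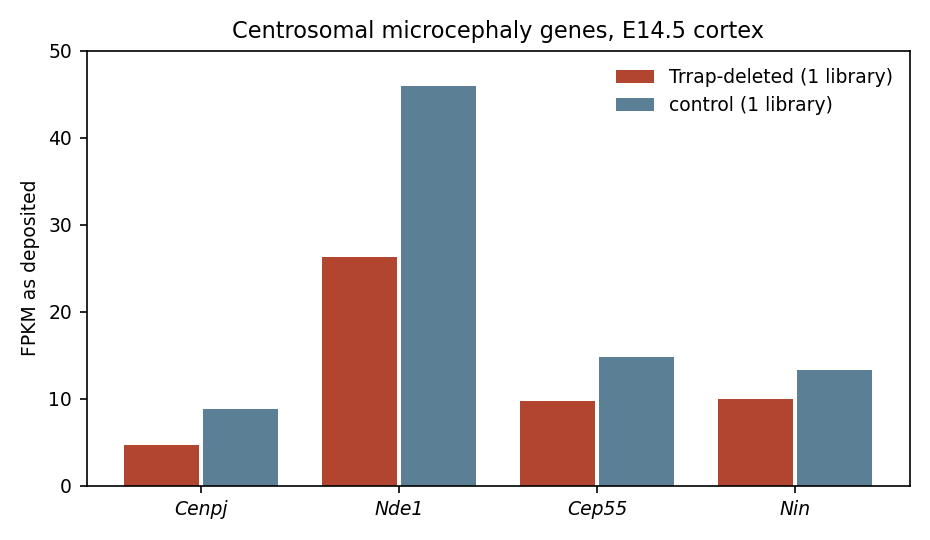
FPKM as deposited (vertical axis, from 0) of the 4 genes in the Trrap-deleted library (left bar of each pair) and the control library (right bar), 1 library each and so without error bars. Each left bar is the shorter one, from 4.71 FPKM for Cenpj to 26.3 FPKM for Nde1, against 8.85 and 45.9 FPKM in the control.

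Over the 4 genes together the summed level was 50.7 FPKM in Trrap-deleted and 82.9 FPKM in control cortex, and the median log2 fold change was -0.70 (1.63-fold lower). The spread of levels was alike in both libraries, with the most abundant gene 5.59 times the least abundant in Trrap-deleted and 5.19 times in control cortex. Nde1 ranked first and Cenpj last in both. Cep55 and Nin changed places: Cep55 was at 0.981 times the Nin level in Trrap-deleted and at 1.11 times in control cortex, a gap for which no replicate error exists.

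How precisely each difference was known can be read only from the authors' statistic. Dividing the log2 fold change by that statistic gives an implied standard error, which covers the authors' model of the reads and not the spread between embryos, of 0.21 for Cenpj, 0.25 for Nde1, 0.21 for Cep55 and 0.15 for Nin on the log2 scale. Their true order among embryos cannot be told from 1 library per genotype, and the gaps are given beside this error only as a description. Cenpj and Nde1 differed by -0.11 with an implied standard error of 0.33, Nde1 and Cep55 by -0.20 with 0.33, and Cep55 and Nin by -0.17 with 0.26. The widest gap, Cenpj minus Nin, was -0.48 with an implied standard error of 0.26. Nin, with the smallest difference, also had the smallest implied error and the longest transcript, a median of 7.18 kb over its coding transcripts in GENCODE M21. Multiplied by such lengths in kb, the FPKM values become fragments scaled for the size of the library alone, about 71.3 in Trrap-deleted and 95.9 in control cortex for Nin, 60.2 and 105 for Nde1, 23.8 and 36.1 for Cep55, and 21.5 and 40.4 for Cenpj. These are approximations, since the labels do not name the transcripts that the authors used.

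Being lower was less common than being higher in the table as a whole. Of 2381 rows, 999 were lower in the Trrap-deleted library (42.0%) and 1382 were higher (58.0%), with a median log2 fold change of 0.54. The share lower was 40.8% of the 941 rows whose mean FPKM lay in the range of the 4 genes, 6.78 to 36.1, and 36.7% of the 2018 protein-coding rows with a single symbol. Direction was part of how the 4 genes were picked, so their 4 of 4 reads nothing against these shares. Among the 998 lower rows with values above 0 in both libraries, whose median was -0.80, the sizes of the 4 differences were ordinary to small. Of these rows 61.5% were less far down than Cenpj, 50.9% than Nde1, 27.6% than Cep55 and 6.11% than Nin.

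**Figure D2:**
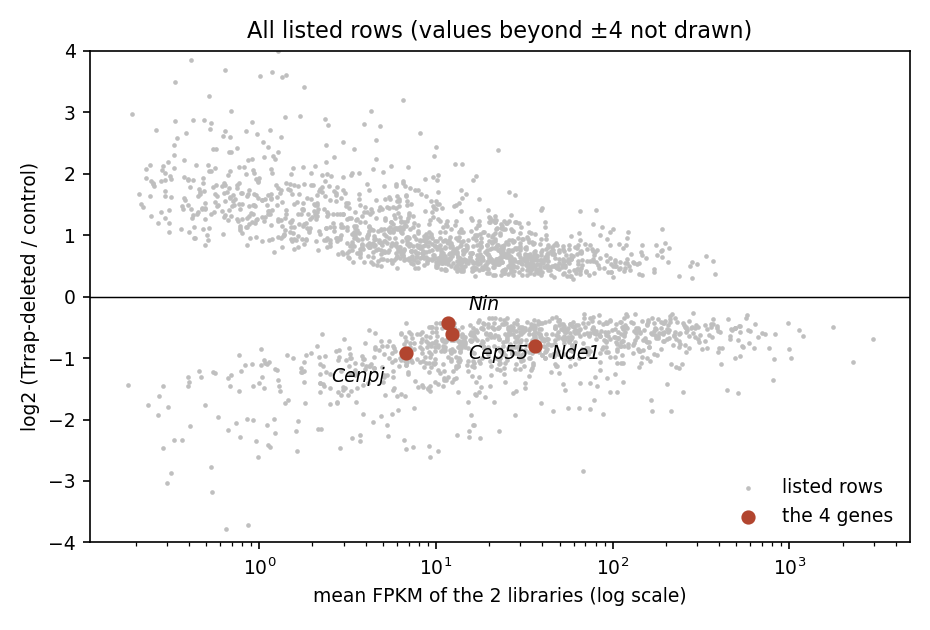
Log2 of Trrap-deleted over control FPKM (vertical axis) against mean FPKM of both libraries (horizontal log axis) for 2361 listed rows in grey, with the 4 genes in red; 15 rows beyond a log2 value of 4 in either direction and 5 rows listed at 0 in 1 library are not drawn. The empty band around 0 is the range that did not pass the authors' test, and the 4 genes, at -0.43 to -0.91, lie near its lower edge or within the lower cloud.

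By position the 4 genes have nothing in common: they lie on mm9 chromosomes 14 (Cenpj, 57145598 to 57190777), 16 (Nde1, 14163368 to 14193021), 19 (Cep55, 38129513 to 38149027) and 12 (Nin, 71112422 to 71214800). No other listed row overlaps any of them. The Nde1 row is 29654 bases long, the same as the gene in GENCODE M21, and the Cep55 row (19515 against 19413 bases) and the Nin row (102379 against 102283) are within about 100 bases of theirs, while the Cenpj row is shorter than the annotated gene (45180 against 48665). Neighbouring rows held both directions. Of 14 listed rows within 1 Mb of a member, 5 were lower and 9 higher, beside 42.0% lower over all rows. Parp4, 3.68 kb from Cenpj, had 0.896 FPKM in Trrap-deleted and 0.340 FPKM in control cortex, and Myof, 11.4 kb from Cep55, had 0.412 and 0.170 FPKM in Trrap-deleted and control cortex, so both were higher. The row shared by Atl1 and Gm3086, 24.3 kb from Nin, was lower, with 6.38 FPKM in Trrap-deleted and 16.3 FPKM in control cortex. Kif11, itself a microcephaly gene, lies 633 kb from Cep55 and was lower. Nde1 had no listed row within 1 Mb.

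Other microcephaly genes in the table were also lower. Over the lists of primary microcephaly and of other microcephaly, dwarfism or lissencephaly genes, 13 of 59 genes had a row of their own, 13 of them lower and 0 higher, and the median of their log2 fold changes was -0.71. Without the 4 genes these are 9 of 9, with the same median of -0.71. Over all rows 42.0% were lower and the median was 0.54. Among rows that reach 5 FPKM in at least 1 library, as all 13 genes do, 47.8% were lower. Both lists were drawn up with earlier results of these data known, so their counts describe the table and test nothing. Kif11, 1 of the 9, is also on the list of cycling-cell markers. The other 46 genes of the lists, among them Cdk5rap2, Wdr62, Stil, Cep152, Cep135, Sass6, Mcph1 and Pcnt, had no row of their own, which does not say that they were unchanged. A row shared by Tubb2a and Tubb2b was lower (927 FPKM in Trrap-deleted, 1351 in control) and one shared by Traip and Camkv was higher (44.8 and 27.0), and neither can be given to 1 gene.

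Of the listed primary microcephaly genes, Aspm, a spindle-pole protein whose gene is the most frequently mutated in the human disorder, had 8.25 FPKM in Trrap-deleted and 13.5 FPKM in control cortex (log2 fold change -0.71). Cenpe, the kinetochore motor that aligns chromosomes, had 8.15 FPKM in Trrap-deleted and 14.4 FPKM in control cortex (-0.83). Lmnb1 and Lmnb2, the B-type lamins of the nuclear envelope, were at -0.82 and -0.50, and Ncapd2, a condensin subunit, at -0.51. These 5 lie within the range of the 4 centrosomal genes, and only Aspm among them is a protein of the spindle pole.

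In the other list, both tubulin genes were the furthest down. Tubb5 had 452 FPKM in Trrap-deleted and 1156 FPKM in control cortex (-1.35), and Tuba1a had 1491 and 3115 FPKM in Trrap-deleted and control cortex (-1.06). Tubulin genes have close paralogs, and the labels do not say how shared reads were assigned. Kif11, the bipolar spindle motor, had 19.4 FPKM in Trrap-deleted and 29.5 FPKM in control cortex (-0.61).

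Grouped by what each member does, the other listed genes of centriole duplication shared the direction of Cenpj. The list counts that follow include any member in the list and stand beside 42.0% lower over all rows. These counts also test nothing, since the lists were drawn up with earlier results of these data known. The lists overlap with each other and with the cycling-cell markers, which include Plk1, Kif20a and Kif11. Of 27 genes of centriole duplication 3 were listed, all lower: Cenpj, Mdm1, a microtubule-binding centriolar protein (11.1 FPKM in Trrap-deleted and 20.7 in control cortex, log2 fold change -0.89), and Cep76, which restrains centriole reduplication in human cells (4.16 and 7.24 FPKM, -0.80). The core assembly factors Plk4, Stil, Sass6 and Cep152 were among the 24 not listed. Of 18 CENP genes, which share a prefix with Cenpj by the history of its name while most of them act at the kinetochore, 8 were listed, 6 lower and 2 higher. Cenpv (24.7 FPKM in Trrap-deleted and 86.5 in control, -1.81), Cenpl (-1.09), Cenpe, Cenpa (-0.72), Cenpt (-0.72) and Cenpc1 (-0.50) were lower, and Cenpm (0.83) and Cenpn (0.85) were higher, so this family held both directions.

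For Nin, 4 of 27 genes of the mother centriole appendages and the centriole linker were listed. Of these 3 were lower, beside 42.0% of all rows. Beside Nin these were Cep83, a distal appendage protein listed under its older symbol Ccdc41 (10.1 FPKM in Trrap-deleted and 15.2 in control cortex, log2 fold change -0.59), and Cep170, a subdistal appendage protein (53.5 and 73.3 FPKM, -0.45). Cep19, listed as 1500031L02Rik, was higher, with 17.4 FPKM in Trrap-deleted and 11.4 in control cortex (0.61). Of 36 genes of the pericentriolar material and microtubule nucleation, 4 were listed. Tacc3 (30.2 FPKM in Trrap-deleted and 49.1 in control, -0.70), a spindle protein, Bora, a cofactor of Aurora A listed as 6720463M24Rik (-0.72), and the mitotic kinase gene Plk1 (-0.64) were lower, and Tacc1 was higher (19.0 and 13.8 FPKM, 0.46). No gamma-tubulin complex or augmin gene was listed.

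For Nde1, 6 of 43 genes of its partners and the dynein pathway were listed. Of them 4 were lower and 2 higher, beside 42.0% lower over all rows. Dclk1, a doublecortin-family kinase on microtubules (21.3 FPKM in Trrap-deleted and 40.6 in control, log2 fold change -0.93), Hook3, a dynein adaptor (-0.52), and Cdk5r1, the p35 activator of Cdk5 (-0.48), were lower with Nde1. The dynein light chain gene Dynlrb1 (263 FPKM in Trrap-deleted and 152 in control, 0.80) and the dynactin subunit gene Dctn6 (0.78) were higher. Ndel1, the close paralog of Nde1, and Pafah1b1 were not listed.

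For Cep55, 5 of 38 genes of the midbody and abscission were listed, itself included, all lower beside 42.0% of all rows. Kif23, the motor of the central spindle, had 13.2 FPKM in Trrap-deleted and 27.4 FPKM in control cortex (log2 fold change -1.05), the largest difference of the list. The ESCRT factor gene Ist1, listed as 2400003C14Rik, had 38.4 and 60.0 FPKM in Trrap-deleted and control cortex (-0.64), and Kif20a (-0.61) and Incenp (-0.56) were close to Cep55. Of 26 genes of spindle orientation and apical polarity, 3 were listed and all were higher, beside 58.0% higher over all rows. Gnai1 (0.45) and Gnai2 (0.54) encode inhibitory G protein subunits of the cortical spindle-pulling complex. Pard6b (0.76), a polarity gene, had 6.80 FPKM in Trrap-deleted and 4.01 FPKM in control cortex. After rescaling the libraries so that the median listed row had a log2 fold change of 0, which lowers every value by the same constant, 1 of these 3, Pard6b, was higher.

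**Figure D3:**
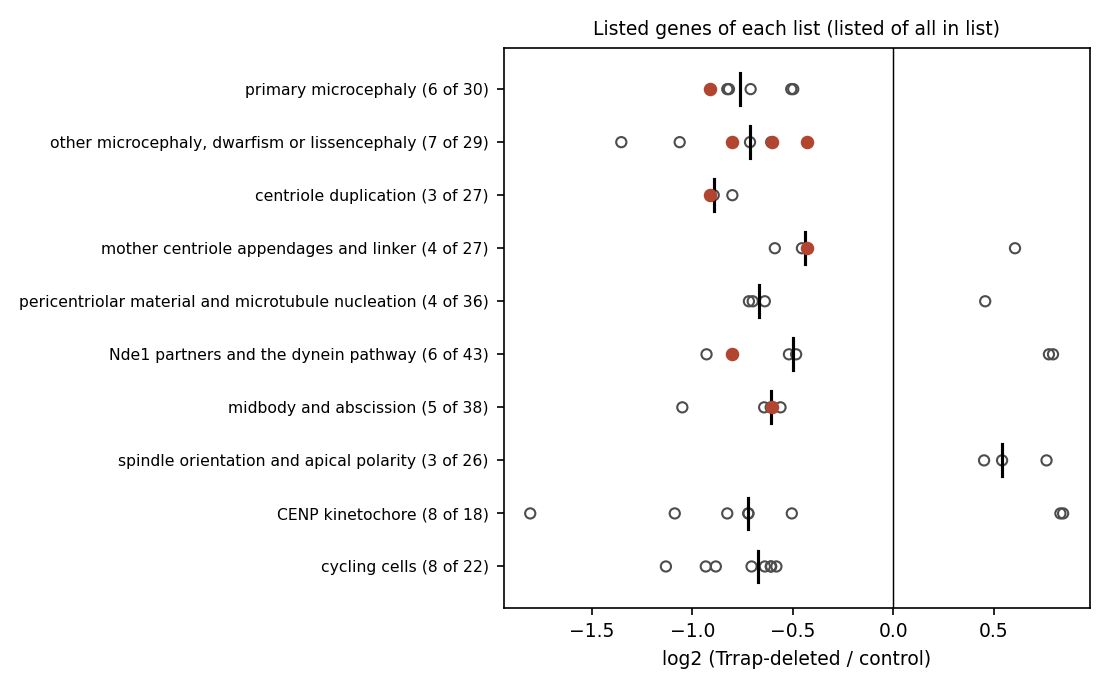
Log2 of Trrap-deleted over control FPKM (horizontal axis) for every listed gene of the 9 pathway lists and of the cycling-cell list (rows), with the 4 genes filled in red, other genes as open circles and list medians as vertical bars. All listed genes of both microcephaly lists, of the centriole duplication list and of the midbody list lie left of 0, and the 3 spindle orientation genes lie right of it. Over all rows 42.0% were lower and 58.0% higher.

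Listed cycling-cell genes were lower by about as much as the 4 genes. Both sets hold only rows past the authors' threshold. The lower rows of the whole table had a median of -0.80, so a likeness in size is not particular to these sets. Of 22 markers of cycling cells, 8 had a row, all lower, beside 42.0% lower over all rows. They ran from Ube2c (-1.13) to Ccnb1 (-0.58). Their median was -0.67 on the log2 scale, and their summed level was 214 FPKM in Trrap-deleted and 369 FPKM in control cortex. Set relative to that median, the 4 genes spread around 0: Cenpj was at -0.24, Nde1 at -0.13, Cep55 at 0.069 and Nin at 0.24, beside implied standard errors of 0.21, 0.25, 0.21 and 0.15 for the 4 genes in this order. In these bulk samples, fewer cells of a type and less RNA per cell cannot be told apart. Mki67 had 43.1 FPKM in Trrap-deleted and 70.2 in control cortex (-0.71), within the range of the 4 genes, while the S-phase genes Pcna, Mcm2, Mcm3, Mcm5 and Mcm6 were not listed.

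**Figure D4:**
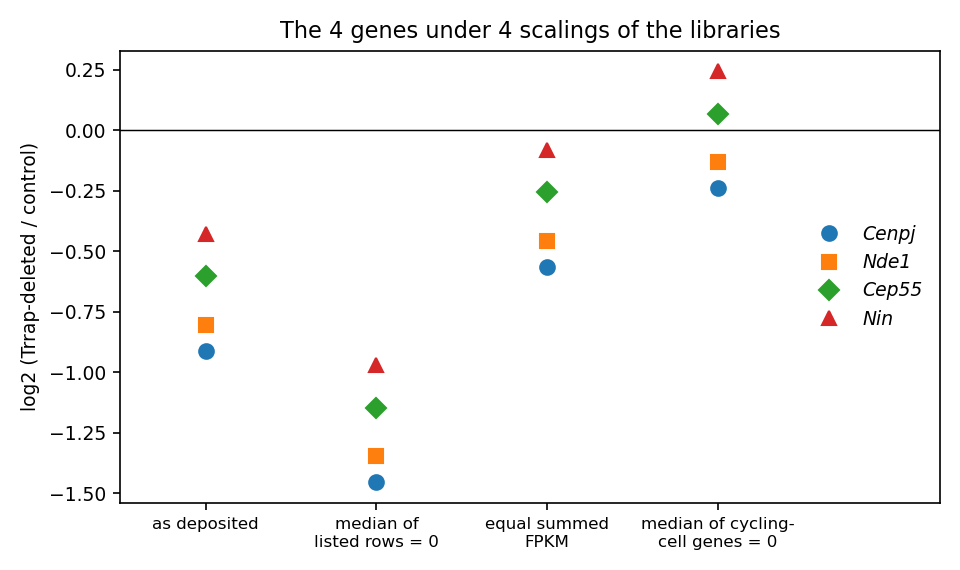
Log2 of Trrap-deleted over control FPKM (vertical axis) of each of the 4 genes as deposited and after 3 rescalings of the libraries, each of which adds 1 constant. The 4 genes stay below 0 except after rescaling to the cycling-cell genes, where Cep55 (0.069) and Nin (0.24) lie above it.

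Markers of several cell types also differed between the libraries. Of 14 neural progenitor markers 4 were listed and split evenly, with the apical membrane marker Prom1 at 8.32 FPKM in Trrap-deleted and 24.9 in control cortex, Vim at 387 and 632, Slc1a3 at 55.1 and 30.7, and Neurog2 at 112 and 89.6; Pax6, Sox2 and Nes were not listed. Of 12 dorsal cortex markers 3 were listed, all lower, beside 42.0% lower over all rows. Neurod6, Bcl11b and Fezf2 were at 260, 28.0 and 42.5 FPKM in Trrap-deleted and 312, 37.3 and 55.9 FPKM in control cortex. After rescaling to equal summed FPKM 2 of these 3 were lower, and 0 of them pass a q-value under 0.01. Emx1 and Tbr1 had no row and could not check the tissue. Of 13 microglial markers 8 were listed, all higher (summed 28.1 FPKM in Trrap-deleted and 10.8 in control), beside 58.0% of all rows. The 5 listed of 9 meningeal markers were also higher (15.4 and 2.66). So were the 2 listed of 10 endothelial and pericyte markers, both of them pericyte genes (4.24 and 2.07). Hbb-y of 8 erythroid genes (157 and 96.8) and Ttr of 6 choroid plexus genes (3.31 and 0.104) were higher too. Of 13 postmitotic neuron markers 3 were listed, 2 lower and 1 higher (summed 113 and 239 FPKM), and of 12 ventral telencephalic markers 4 were listed, 3 lower and 1 higher (15.8 and 18.9). The Y-linked Eif2s3y was at 32.8 FPKM in Trrap-deleted and 0.111 FPKM in control cortex, and Xist at 142 and 313 FPKM. The Trrap-deleted library thus held both a Y-linked transcript and Xist, while Eif2s3y was near 0 in the control. Sex-linked transcripts differed along with genotype, and with 1 library each the sex make-up of the samples and genotype cannot be told apart. Trrap itself had no row. The part of these differences in the values of the 4 genes was not tested, since each genotype had 1 library.

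By their pair of levels alone, the listed rows most like each member were mostly genes of other processes. Likeness was the distance between log2 FPKM values over the 2 libraries, and the 3 nearest single-symbol rows are given for each member. Nearest to Cenpj were Gm17143, the synaptotagmin gene Syt5 and the matrix gene Tnc (distances 0.09 to 0.10). Nearest to Nde1 were Clic4, 0610010F05Rik and Pnrc2 (0.03 to 0.06). Nearest to Cep55 were Rusc1, D10Wsu102e and Ccdc41, the appendage gene Cep83 (0.05 to 0.07). Nearest to Nin were the adhesion gene Vcam1, Cramp1l and D10Wsu102e (0.05 to 0.10). With only 2 libraries, many rows have nearly the same pair of values.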

How the data were processed

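RNA sequencing of mouse embryonic cortex was deposited for 2 samples, 1 per genotype. Per the labels' protocols, 2.5 µg of total RNA entered each library. The submitters' processing notes name TopHat2 and build mm9; no other tool, version or strand handling is stated. The 2 value columns were read as FPKM as deposited by the authors, from the Cuffdiff-like column layout, since the file does not write the unit. The p-value and q-value columns were deposited by the authors, and the table holds rows under their q-value threshold of 0.05. Library depth is unknown, so no counting interval could be given.

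Log2 fold changes were recomputed from the FPKM (pandas 2.3.3, numpy 2.4.6). No test was run. The implied standard error assumes that the authors' statistic is a log ratio over its error; the p-value equals its two-sided normal p within 1% in 2376 of 2381 rows. Its sign is opposite to the fold change. A symbol with several rows (11 symbols) used the most abundant row, and the 59 rows of several symbols were left out of lists. Older symbols were matched through RefSeq. The 4 genes and the 9 pathway and 10 marker lists were chosen with earlier results of these data known. Genes were named by rule: of each pathway list up to 8 listed genes, the 3 rows nearest to each member and of marker lists up to 3 genes; further named genes were chosen after their values were seen. A gene counted in a list but not named may be one that is not reported here. List counts and the motif search were tested on simulated data. Alternatives were other scalings, a pseudocount of 1, an FPKM minimum of 5 and a q-value under 0.01.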

Additional observations from a re-analysis of the deposited data

How the results depend on the processing

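A pseudocount of 1 cannot change a sign, and each rescaling adds 1 constant to every gene, so the signs below follow from the size of that constant and are no sign of stability. After rescaling to a median of 0 they were -1.45 (Cenpj), -1.35 (Nde1), -1.15 (Cep55) and -0.97 (Nin). After rescaling to equal summed FPKM they were -0.57, -0.46, -0.26 and -0.082 in that order. After rescaling to the cycling-cell genes Cenpj was at -0.24 and Nde1 at -0.13, while Cep55 at 0.069 and Nin at 0.24 changed sign under its constant of 0.67. The share of rows lower was 42.0% as deposited. Its exact 95% interval of 40.0% to 44.0% covers counting alone. It takes the rows as independent, which rows from 1 pair of libraries are not. The share was 47.8% at an FPKM of at least 5. After rescaling to a median of 0 it was 49.9%, a balance set by the centring itself. At a q-value under 0.01 fewer rows remain by construction, and the genes lower numbered 4 in the list of other microcephaly genes, 0 among appendages, 1 in the pericentriolar list, 3 in the midbody list and 2 among CENP genes; of the 4 genes only Cenpj passes it. Rescaling to a median of 0 left 1 spindle orientation gene higher and turned that list's median to -0.0010, and rescaling to equal summed FPKM turned the progenitor median from -0.19 to 0.15. No paired analysis was possible because each genotype had 1 library, and no replicate could be left out.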
